A study of Rattus norvegicus with 11 samples.

Results

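Glycolysis and the response to low oxygen were followed through 36 genes, which run from glucose transporters and the enzymes of glycolysis to genes induced by hypoxia. The genes were picked by symbol, with earlier results of these data known. All 36 symbols were found among the 42172 genes of the deposited tables, and 35 of them were among the 17294 genes that passed a filter on low counts and were tested, with Ca9 below it. The neurons were primary cultures from the hippocampus of CD (Sprague Dawley) IGS rats, taken on day 7 in vitro, and the RNA sequenced was polyadenylated. One group expressed an exogenous linker histone H1.4 whose C-terminus carries a frameshift tail (H1.4 CFT, n = 4). The second expressed exogenous wild-type H1.4 (WT H1.4, n = 4) and the third expressed GFP as the control (n = 3), so every group expressed a protein from outside. The vector, its promoter and the species of the H1.4 sequence are not given in the sources used here. Libraries are named by group and by the replicate number in the labels, which is 1 to 4 for H1.4 CFT (CFT) and WT H1.4 (WT) and 2 to 4 for GFP. The labels call them biological replicates and name no culture, so p-values measure the spread between these libraries, each counted as independent.

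Glycolysis splits glucose into pyruvate in the cytosol and yields ATP without oxygen, and lactate dehydrogenase then interconverts pyruvate and lactate. When oxygen falls, prolyl hydroxylases stop marking the alpha subunits of the hypoxia-inducible factors for destruction. The stabilised factor pairs with Arnt, binds hypoxia response elements built around the letters ACGTG or GCGTG, and induces many glycolytic enzymes together with genes of vessel growth, mitophagy and collagen hydroxylation. In brain, astrocytes are known for high glycolysis and neurons for a larger reliance on mitochondrial respiration.

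The letters ACGTG, part of the factor's element, occur in the start regions of many of these genes. Stretches of promoter are shown for 6 of them, chosen as genes with these letters upstream of the start. The sequences are from RefSeq on the GRCr8 build, written 5′ to 3′ in the direction of the gene, and capitals mark the letters ACGTG or their reverse complement CACGT, including runs where both overlap as CACGTG. The first 3 are the 250 bases before the start of Ldha (lactate dehydrogenase A, chr1:106507842-106508091 on the plus strand), Bnip3 (a mitophagy receptor, chr1:203154963-203155212 on the minus strand) and Ankrd37 (an ankyrin-repeat protein, chr16:53001257-53001506 on the plus strand).
Ldha: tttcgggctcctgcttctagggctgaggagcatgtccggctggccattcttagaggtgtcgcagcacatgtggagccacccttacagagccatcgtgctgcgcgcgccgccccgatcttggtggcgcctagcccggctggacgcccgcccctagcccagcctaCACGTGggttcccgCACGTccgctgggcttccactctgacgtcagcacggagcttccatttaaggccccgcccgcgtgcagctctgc
Bnip3: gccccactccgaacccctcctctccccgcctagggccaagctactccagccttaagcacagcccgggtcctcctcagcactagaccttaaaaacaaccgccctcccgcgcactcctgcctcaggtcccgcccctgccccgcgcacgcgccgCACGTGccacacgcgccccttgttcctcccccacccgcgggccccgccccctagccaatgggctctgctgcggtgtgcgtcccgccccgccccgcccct
Ankrd37: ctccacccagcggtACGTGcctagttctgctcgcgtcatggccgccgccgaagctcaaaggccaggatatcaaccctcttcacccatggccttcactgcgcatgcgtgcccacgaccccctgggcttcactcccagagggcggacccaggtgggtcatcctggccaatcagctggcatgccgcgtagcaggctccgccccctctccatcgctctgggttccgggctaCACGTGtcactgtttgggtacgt
The others are 61-base windows around a match in Eno2 (neuronal enolase, chr4:159267327-159267387 on the minus strand), Gapdh (glyceraldehyde-3-phosphate dehydrogenase, chr4:159652556-159652616 on the minus strand) and Ddit4 (an inhibitor of mTORC1 signalling, chr20:28437143-28437203 on the minus strand).
Eno2: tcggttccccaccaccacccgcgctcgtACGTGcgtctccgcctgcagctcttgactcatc
Gapdh: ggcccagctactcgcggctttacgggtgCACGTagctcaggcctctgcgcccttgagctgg
Ddit4: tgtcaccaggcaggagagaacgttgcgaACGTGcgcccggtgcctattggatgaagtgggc
In windows of 250 bases before to 50 bases after each start, ACGTG on either strand was found in 20 of the 38 promoters listed for 32 of the genes (52.6%), against 3533 of 15122 promoters of tested genes (23.4%) and 6444 of 33469 promoters in all (19.3%). Slc2a3, Pgk1, Bnip3l and Ndrg1 were not matched in that table, and GCGTG was not searched for. The genes were picked as glycolysis and hypoxia response genes, so the higher share is not a finding of these libraries. A match is a run of letters and not a measured binding site, and no promoter was assayed in these libraries.

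Reads assigned to genes numbered 12070941 (GFP 3) to 18846492 (WT 1) per library. The 36 genes together took 0.925, 0.909, 0.683 and 0.666% of gene counts in CFT 1 to 4, 1.05, 1.08, 1.03 and 1.05% in WT 1 to 4, and 1.00, 0.900 and 0.787% in GFP 2 to 4. CFT 3 and CFT 4 therefore stood below CFT 1 and CFT 2, and over all genes, too, libraries 1 and 2 of a group resembled each other and so did 3 and 4. The variance between libraries of a group was 1.79 to 2.26 times the counting variance within these number pairs and 3.79 to 9.27 times across them. The labels name no batch, and results are also given by number pair. The fit by group counts every library as independent, so its p-values may be too small if libraries of a number pair are not. The cultures carried every neuronal marker looked for, with a summed level of 4562 to 5406 CPM (counts scaled to library size by TMM) in H1.4 CFT, 6537 to 6696 CPM in WT H1.4 and 6582 to 6743 CPM in GFP. Astrocyte markers summed to 3104 to 3196 CPM in H1.4 CFT, 2506 to 2598 CPM in WT H1.4 and 3064 to 3272 CPM in GFP. Oligodendrocyte lineage markers summed to 473.2 to 583.6 CPM over all libraries, microglial ones to 8.92 to 14.9 CPM, vascular and fibroblast ones to 64.6 to 105.3 CPM. Markers of dividing cells summed to 310.7 to 391 CPM in H1.4 CFT, 293.5 to 310.9 CPM in WT H1.4 and 286.5 to 331.3 CPM in GFP. Erythroid markers stayed at or below 2.02 CPM, with 1 of 6 at 0 in every library. Mitochondrially encoded genes took 3.14 to 3.38% of gene counts in H1.4 CFT, 2.64 to 2.97% in WT H1.4 and 2.81 to 2.98% in GFP. H1f4, the rat gene for H1.4, had at most 8 counts in any library, so it does not check the labels.

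Set against WT H1.4, the H1.4 CFT neurons had less transcript of genes for most steps from hexokinase to lactate dehydrogenase, while the genes of 2 steps, Pgam1 and Pkm, did not pass (Pkm did with the replicate number as a block). Of 35 genes tested, 15 fell, and the other 20 did not pass an adjusted p of 0.05 in edgeR's quasi-likelihood test with Benjamini-Hochberg adjustment over all genes. Over all genes tested in this comparison 19.2% fell. All 35 log2 fold changes were below 0, from -0.93 (Hk2) to -0.012 (Egln3), as were 47.4% of those of all genes. The median was -0.45, against 0.018 over all genes. Every CFT library lay below every WT library for 20 of the 35, which holds for 18.5% of all genes tested. These 20 were the 15 that fell and Hk2, Pfkp, Pkm, Vegfa and Ndrg1. With the replicate number as a block the count of falls was 26, and it held all 15. Shares of all genes here and below are from fits without the block, and those with it are not given. In libraries of whole cultures, fewer cells of a type and less of a transcript per cell cannot be told apart. Of the neuronal markers 9 of 13 also fell and 2 rose, and 7 of 11 tested astrocyte markers rose, where 16.7% of all genes rose, and their part in the result was not tested. The calls of Gpi, Pfkl, Aldoa and Pdk1 were each lost on leaving out CFT 3, CFT 4, WT 2, WT 3 or WT 4 (adjusted p 0.0573 to 0.0965), that of Pfkl also within numbers 1 and 2 (0.525), those of Gpi, Aldoa and Pdk1 without WT 1 (0.0557 to 0.0764), and those of Gpi and Aldoa without GFP 3 (0.0591 and 0.0550).

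**Figure D1:**
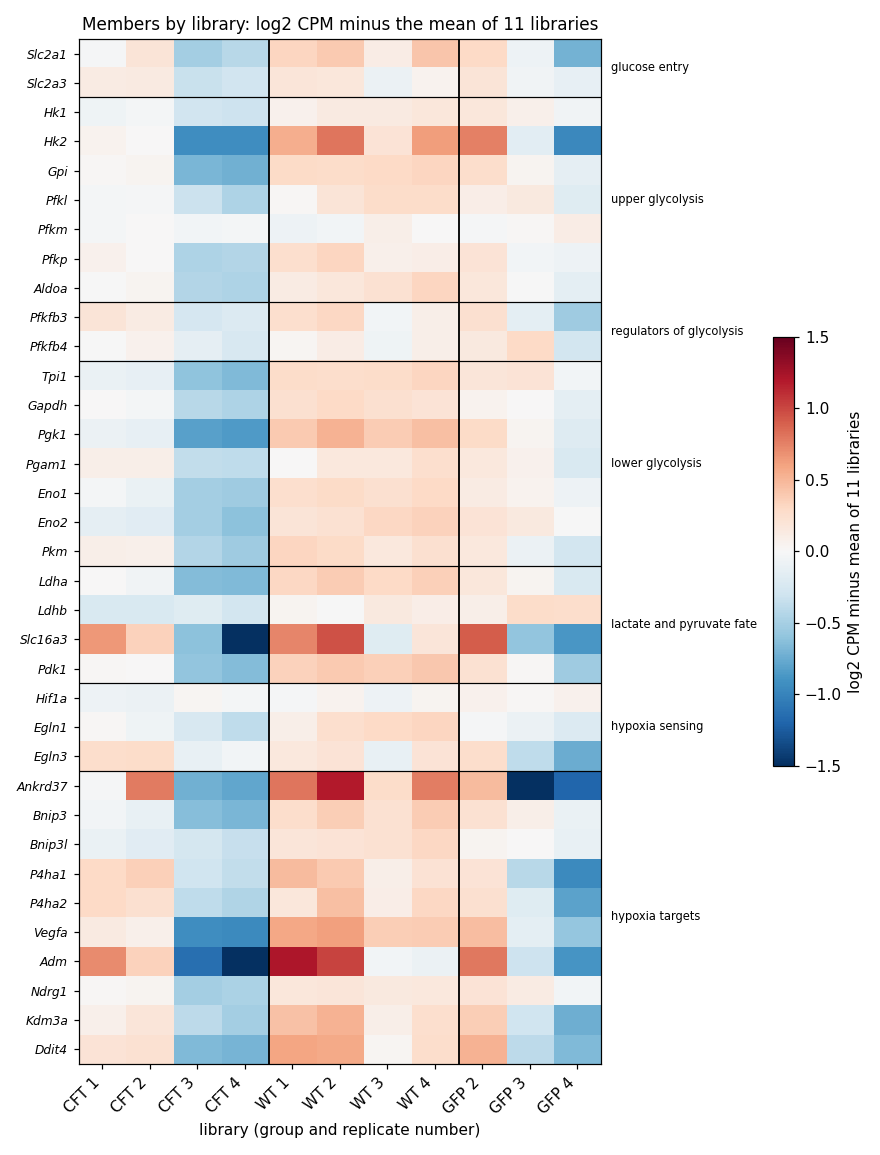
Level of each tested gene in each library, as log2 CPM minus the gene's mean over the 11 libraries, with genes grouped by role and libraries in the order H1.4 CFT, WT H1.4 and GFP. The colour scale stops at -1.5 and 1.5, and of the 35 genes 24 are lowest in CFT 3 or CFT 4 and 8 in GFP 4, while 28 are highest in a WT library.

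In the fit by group alone, neither of the genes that bring glucose into the cell passed in any comparison. Slc2a1, the transporter GLUT1, averaged 34.9 ± 8.09 CPM in H1.4 CFT, 48.3 ± 4.46 CPM in WT H1.4 and 36.2 ± 12.1 CPM in GFP (SD, n = 4, 4 and 3, as for all means below). Its log2 fold changes were -0.47 in H1.4 CFT relative to WT H1.4 (adjusted p = 0.142), -0.044 relative to GFP and 0.42 in WT H1.4 relative to GFP. Slc2a3, the neuronal transporter GLUT3, averaged 107 ± 18.6 CPM in H1.4 CFT, 118 ± 10.1 CPM in WT H1.4 and 113 ± 13.4 CPM in GFP, and its log2 fold changes were -0.15 in H1.4 CFT relative to WT H1.4 (adjusted p = 0.399), -0.085 relative to GFP and 0.068 in WT H1.4 relative to GFP. With the replicate block Slc2a3 fell (log2 fold change -0.16, adjusted p = 0.0145). Slc2a1 did not pass with that block but fell under some alternatives, among them limma-voom (log2 fold change -0.49, adjusted p = 0.0258). For both transporters the CFT and WT libraries overlapped.

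In the upper part of glycolysis, which spends ATP to split glucose, 4 of 7 enzyme genes fell in H1.4 CFT relative to WT H1.4. Of all genes 19.2% fell. Hk1, the main hexokinase of brain, stood at 427, 437, 363 and 358 CPM in CFT 1 to 4, 466, 489, 489.9 and 499.6 CPM in WT 1 to 4 and 499, 468 and 431 CPM in GFP 2 to 4. No CFT library reached the lowest WT library, and CFT 3 and CFT 4 were lowest of all. It fell 1.23-fold in H1.4 CFT relative to WT H1.4 (log2 fold change -0.29, SE 0.063, adjusted p = 0.00194). Hk2, the inducible hexokinase, averaged 16.8 ± 6.21 CPM in H1.4 CFT, 31.9 ± 5.31 CPM in WT H1.4 and 22.4 ± 13.1 CPM in GFP, with every CFT library below every WT library. Its log2 fold changes were -0.93 in H1.4 CFT relative to WT H1.4 (adjusted p = 0.0939), -0.41 relative to GFP and 0.52 in WT H1.4 relative to GFP, and none passed, while with the replicate block it fell (log2 fold change -0.98, adjusted p = 0.0377). Gpi, the isomerase that makes fructose 6-phosphate, averaged 363 ± 103 CPM in H1.4 CFT, 546 ± 6.76 CPM in WT H1.4 and 464 ± 64.2 CPM in GFP. It fell 1.51-fold in H1.4 CFT relative to WT H1.4 (log2 fold change -0.59, SE 0.19, adjusted p = 0.0418), and its other log2 fold changes were -0.36 in H1.4 CFT relative to GFP and 0.23 in WT H1.4 relative to GFP.

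The 3 phosphofructokinase genes, whose products form the committed step of glycolysis, gave unlike values. Pfkl, the liver-type subunit, stood at 229, 231, 186 and 169 CPM in CFT 1 to 4, 236, 267, 283 and 283 CPM in WT 1 to 4 and 249, 258 and 205 CPM in GFP 2 to 4. The CFT and WT libraries did not overlap, although CFT 2 came close to WT 1. It fell 1.31-fold in H1.4 CFT relative to WT H1.4 (log2 fold change -0.39, SE 0.12, adjusted p = 0.0307). Pfkp, the platelet-type subunit that is common in brain, averaged 213 ± 41.4 CPM in H1.4 CFT, 277 ± 22.8 CPM in WT H1.4 and 249 ± 26.7 CPM in GFP, with log2 fold changes of -0.38 in H1.4 CFT relative to WT H1.4 (adjusted p = 0.0638), -0.22 relative to GFP and 0.15 in WT H1.4 relative to GFP. With the replicate block Pfkp fell (log2 fold change -0.39, adjusted p = 6.71e-06). Pfkm, the muscle-type subunit, averaged 159 ± 2.52 CPM in H1.4 CFT, 161 ± 7.71 CPM in WT H1.4 and 166 ± 7.99 CPM in GFP and its log2 fold changes were -0.018 in H1.4 CFT relative to WT H1.4 (adjusted p = 0.777), -0.061 relative to GFP and -0.043 in WT H1.4 relative to GFP. Whether the 3 fold changes differ from one another was not tested. Aldoa, the aldolase that cleaves fructose 1,6-bisphosphate, averaged 424 ± 79.3 CPM in H1.4 CFT, 561 ± 33.8 CPM in WT H1.4 and 489 ± 54.9 CPM in GFP and fell 1.32-fold in H1.4 CFT relative to WT H1.4 (log2 fold change -0.41, SE 0.13, adjusted p = 0.0398), with -0.21 in H1.4 CFT relative to GFP and 0.20 in WT H1.4 relative to GFP.

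Of the bifunctional enzymes that set the level of fructose 2,6-bisphosphate, an activator of phosphofructokinase, neither gene passed. Pfkfb3 averaged 149.8 ± 23.6 CPM in H1.4 CFT, 169.9 ± 18.8 CPM in WT H1.4 and 141 ± 37.5 CPM in GFP, with log2 fold changes of -0.18 in H1.4 CFT relative to WT H1.4 (adjusted p = 0.473), 0.093 relative to GFP and 0.27 in WT H1.4 relative to GFP. Pfkfb4 averaged 22.6 ± 2.11 CPM in H1.4 CFT, 24.5 ± 1.30 CPM in WT H1.4 and 25.0 ± 4.89 CPM in GFP, with log2 fold changes of -0.12 in H1.4 CFT relative to WT H1.4 (adjusted p = 0.379), -0.14 relative to GFP and -0.023 in WT H1.4 relative to GFP.

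The lower part of glycolysis, which yields ATP and pyruvate, had 5 of 7 genes that fell in H1.4 CFT relative to WT H1.4. The share of all genes was 19.2%. Tpi1, the triose phosphate isomerase, stood at 352, 347, 248 and 238 CPM in CFT 1 to 4, 456, 455, 457 and 471 CPM in WT 1 to 4 and 429, 436 and 367 CPM in GFP 2 to 4. The WT libraries all lay above the CFT libraries, with WT 4 the highest. Tpi1 fell 1.55-fold in H1.4 CFT relative to WT H1.4 (log2 fold change -0.63, SE 0.14, adjusted p = 0.0066). Gapdh, which is often used as a reference gene, stood at 1371, 1332, 1023 and 985 CPM in CFT 1 to 4, 1611, 1670, 1611 and 1566 CPM in WT 1 to 4 and 1414, 1365 and 1232 CPM in GFP 2 to 4. All WT libraries were above all libraries of both other groups. Gapdh fell 1.37-fold in H1.4 CFT relative to WT H1.4 (log2 fold change -0.46, SE 0.11, adjusted p = 0.00863).

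Pgk1, the kinase that makes the first ATP of this part, stood at 359.5, 351, 216 and 211 CPM in CFT 1 to 4, 502, 547, 496 and 521 CPM in WT 1 to 4 and 467, 391 and 332 CPM in GFP 2 to 4. CFT 3 and CFT 4 had the lowest values, and no CFT library reached a WT library. Pgk1 fell 1.82-fold in H1.4 CFT relative to WT H1.4 (log2 fold change -0.86, SE 0.20, adjusted p = 0.0108), the largest fall among the 15. Pgam1, the mutase of the next step, averaged 234 ± 42.8 CPM in H1.4 CFT, 283 ± 19.6 CPM in WT H1.4 and 257 ± 34.3 CPM in GFP, with log2 fold changes of -0.27 in H1.4 CFT relative to WT H1.4 (adjusted p = 0.157), -0.13 relative to GFP and 0.14 in WT H1.4 relative to GFP. The enolases act next. Eno1, the ubiquitous enolase, stood at 891, 849, 642 and 631 CPM in CFT 1 to 4, 1087, 1114, 1080 and 1124 CPM in WT 1 to 4 and 992, 949 and 863 CPM in GFP 2 to 4, with the WT libraries again above all others. It fell 1.46-fold in H1.4 CFT relative to WT H1.4 (log2 fold change -0.55, SE 0.11, adjusted p = 0.00456). Eno2, the enolase of mature neurons, stood at 291, 285, 225 and 209 CPM in CFT 1 to 4, 366, 374, 397 and 407 CPM in WT 1 to 4 and 369, 354 and 318 CPM in GFP 2 to 4. Here the CFT libraries lay below both other groups. Eno2 fell 1.53-fold in H1.4 CFT relative to WT H1.4 (log2 fold change -0.61, SE 0.11, adjusted p = 0.00177). Pkm, the pyruvate kinase, averaged 599 ± 136 CPM in H1.4 CFT, 807 ± 37.8 CPM in WT H1.4 and 652 ± 99.5 CPM in GFP, and its log2 fold changes were -0.43 in H1.4 CFT relative to WT H1.4 (adjusted p = 0.0714), -0.12 relative to GFP and 0.31 in WT H1.4 relative to GFP. With the replicate block it fell (log2 fold change -0.46, adjusted p = 0.00623).

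The genes for the fate of pyruvate and lactate held 3 falls among 4 in H1.4 CFT relative to WT H1.4, where 19.2% of all genes fell. Ldha, the subunit that favours lactate formation, stood at 785, 754, 498 and 495 CPM in CFT 1 to 4, 969, 1020, 961 and 1004 CPM in WT 1 to 4 and 877, 805 and 669 CPM in GFP 2 to 4. The WT libraries were above all others, and CFT 3 and CFT 4 were the lowest. Ldha fell 1.56-fold in H1.4 CFT relative to WT H1.4 (log2 fold change -0.64, SE 0.17, adjusted p = 0.0187). Ldhb, the subunit that favours pyruvate formation, stood at 148, 148, 154 and 143 CPM in CFT 1 to 4, 179, 173, 191 and 186 CPM in WT 1 to 4 and 185, 209 and 208 CPM in GFP 2 to 4. The CFT libraries were the lowest here too, but CFT 3 and CFT 4 were not set apart from CFT 1 and CFT 2. Ldhb fell 1.23-fold in H1.4 CFT relative to WT H1.4 (log2 fold change -0.30, SE 0.047, adjusted p = 6.74e-05). The number of Ldha counts per Ldhb count was 5.29, 5.11, 3.24 and 3.47 in CFT 1 to 4, 5.42, 5.91, 5.02 and 5.39 in WT 1 to 4, and 4.75, 3.85 and 3.21 in GFP 2 to 4. Slc16a3, the lactate exporter MCT4, averaged 5.70 ± 3.31 CPM in H1.4 CFT, 8.33 ± 2.86 CPM in WT H1.4 and 6.10 ± 4.36 CPM in GFP, with log2 fold changes of -0.55 in H1.4 CFT relative to WT H1.4 (adjusted p = 0.476), -0.099 relative to GFP and 0.45 in WT H1.4 relative to GFP. The replicate block gave it a fall (log2 fold change -0.62, adjusted p = 0.0202). Pdk1, the kinase that holds pyruvate dehydrogenase inactive, averaged 39.6 ± 9.91 CPM in H1.4 CFT, 61.8 ± 1.26 CPM in WT H1.4 and 45.7 ± 11.6 CPM in GFP and fell 1.56-fold in H1.4 CFT relative to WT H1.4 (log2 fold change -0.65, SE 0.20, adjusted p = 0.0341), with -0.20 in H1.4 CFT relative to GFP and 0.44 in WT H1.4 relative to GFP.

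**Figure D2:**
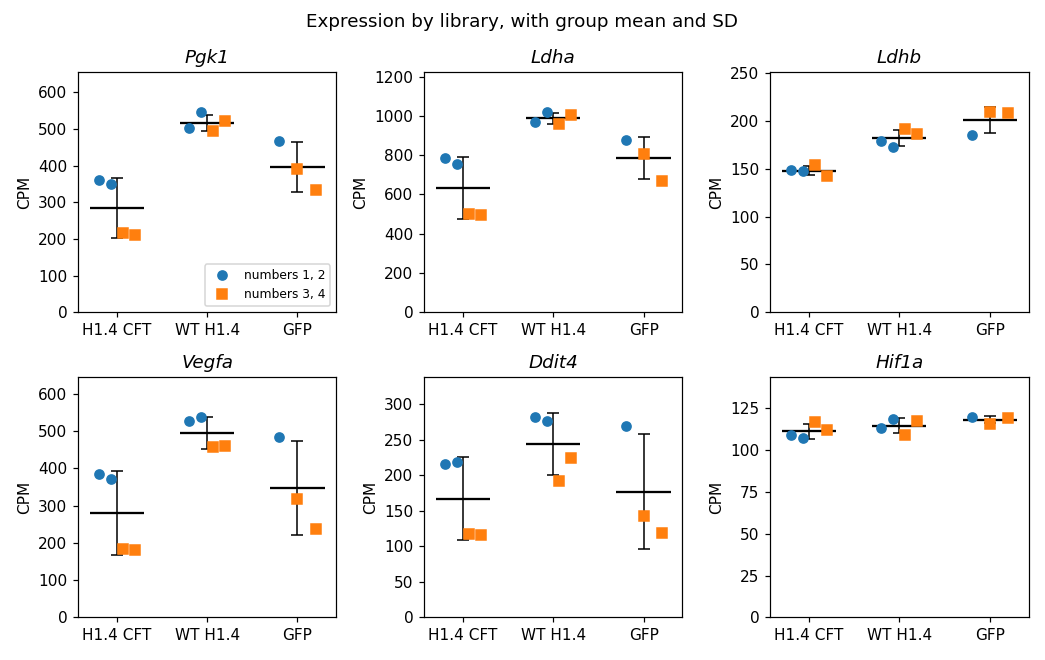
CPM of 6 of the genes in each library, with the mean and SD of each group as a line and bar, and with numbers 1 and 2 as circles and 3 and 4 as squares. In H1.4 CFT the squares lie well below the circles for Pgk1, Ldha, Vegfa and Ddit4, but not for Ldhb or Hif1a.

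The oxygen sensing genes differed from one another in their values. Hif1a, the regulated alpha subunit, averaged 111 ± 4.25 CPM in H1.4 CFT, 115 ± 4.53 CPM in WT H1.4 and 118 ± 2.06 CPM in GFP, and its log2 fold changes were -0.043 in H1.4 CFT relative to WT H1.4 (adjusted p = 0.468), -0.088 relative to GFP and -0.046 in WT H1.4 relative to GFP. The regulation of this subunit by oxygen is at the protein level, which was not measured. Egln1, the main prolyl hydroxylase that marks it and itself a hypoxia-induced gene, stood at 75.8, 71.9, 63.5 and 57.8 CPM in CFT 1 to 4, 79.6, 89.6, 92.4 and 93.6 CPM in WT 1 to 4 and 74.3, 70.6 and 65.3 CPM in GFP 2 to 4. The WT libraries were above those of both other groups, and the CFT and GFP libraries overlapped. Egln1 fell 1.32-fold in H1.4 CFT relative to WT H1.4 (log2 fold change -0.40, SE 0.077, adjusted p = 0.000956). Egln3, a second hypoxia-induced prolyl hydroxylase, averaged 30.8 ± 4.26 CPM in H1.4 CFT, 31.1 ± 3.10 CPM in WT H1.4 and 24.4 ± 8.81 CPM in GFP, with log2 fold changes of -0.012 in H1.4 CFT relative to WT H1.4 (adjusted p = 0.969), 0.34 relative to GFP and 0.35 in WT H1.4 relative to GFP.

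Of 10 hypoxia targets tested, only the 2 mitophagy receptors fell in H1.4 CFT relative to WT H1.4, a share near the 19.2% of all genes. Bnip3 stood at 119, 113, 78.3 and 75.3 CPM in CFT 1 to 4, 146, 157, 142 and 158 CPM in WT 1 to 4 and 142, 129 and 114 CPM in GFP 2 to 4. All CFT libraries were below all WT libraries, and CFT 3 and CFT 4 were lowest. Bnip3 fell 1.57-fold in H1.4 CFT relative to WT H1.4 (log2 fold change -0.65, SE 0.16, adjusted p = 0.0119). Bnip3l, also called Nix, stood at 145, 138, 129.7 and 122 CPM in CFT 1 to 4, 176, 179, 182 and 193 CPM in WT 1 to 4 and 159, 155 and 143 CPM in GFP 2 to 4. The libraries formed steps, with the WT group above all others and the lower CFT libraries under all GFP libraries, while CFT 1 overlapped the GFP range. Bnip3l fell 1.36-fold in H1.4 CFT relative to WT H1.4 (log2 fold change -0.45, SE 0.052, adjusted p = 2.60e-06), the smallest adjusted p among the 35.

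The other 8 targets did not pass in that comparison, and CFT 3 and CFT 4 lay below CFT 1 and CFT 2 in each. With the replicate block 6 of these 8 fell, which were Vegfa (log2 fold change -0.91, adjusted p = 0.0168), Ddit4 (log2 fold change -0.60, adjusted p = 0.0230), Ndrg1 (log2 fold change -0.39, adjusted p = 0.0154), Kdm3a (log2 fold change -0.49, adjusted p = 0.0157), Adm (log2 fold change -0.84, adjusted p = 0.000716) and Ankrd37 (log2 fold change -0.90, adjusted p = 0.00345). The share of all genes that fell with the block is not given, so that count cannot be read against it. Vegfa, the vascular growth factor, stood at 385, 370.3, 185 and 181 CPM in CFT 1 to 4, 528, 537, 456 and 460 CPM in WT 1 to 4 and 484, 318 and 236 CPM in GFP 2 to 4. The CFT and WT libraries did not overlap, and its log2 fold changes were -0.82 in H1.4 CFT relative to WT H1.4 (adjusted p = 0.0781), -0.30 relative to GFP and 0.52 in WT H1.4 relative to GFP. Ddit4 stood at 215, 219, 118 and 116 CPM in CFT 1 to 4, 281, 276, 191 and 225 CPM in WT 1 to 4 and 269, 142 and 118 CPM in GFP 2 to 4, so CFT 1 and CFT 2 lay inside the WT range and CFT 3 and CFT 4 below it. Its log2 fold changes were -0.55 in H1.4 CFT relative to WT H1.4 (adjusted p = 0.24), -0.080 relative to GFP and 0.47 in WT H1.4 relative to GFP. Ndrg1, a stress-induced gene of the NDRG family, averaged 119 ± 24.6 CPM in H1.4 CFT, 155 ± 1.57 CPM in WT H1.4 and 148 ± 12.6 CPM in GFP, with log2 fold changes of -0.37 in H1.4 CFT relative to WT H1.4 (adjusted p = 0.0524), -0.31 relative to GFP and 0.068 in WT H1.4 relative to GFP. Kdm3a, a histone H3 lysine demethylase, averaged 73.7 ± 17.2 CPM in H1.4 CFT, 102 ± 13.4 CPM in WT H1.4 and 73.0 ± 28.5 CPM in GFP, with log2 fold changes of -0.47 in H1.4 CFT relative to WT H1.4 (adjusted p = 0.188), 0.018 relative to GFP and 0.48 in WT H1.4 relative to GFP.

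P4ha1 and P4ha2 encode catalytic subunits of collagen prolyl hydroxylase. P4ha1 averaged 84.2 ± 22.1 CPM in H1.4 CFT, 101 ± 12.2 CPM in WT H1.4 and 66.5 ± 26.7 CPM in GFP and its log2 fold changes were -0.27 in H1.4 CFT relative to WT H1.4 (adjusted p = 0.472), 0.35 relative to GFP and 0.62 in WT H1.4 relative to GFP. For P4ha2 the means were 21.8 ± 5.89 CPM in H1.4 CFT, 26.8 ± 2.97 CPM in WT H1.4 and 19.6 ± 6.71 CPM in GFP, and the log2 fold changes -0.30 in H1.4 CFT relative to WT H1.4 (adjusted p = 0.382), 0.17 relative to GFP and 0.46 in WT H1.4 relative to GFP. Adm, the peptide adrenomedullin, was low, at 2.98 ± 2.05 CPM in H1.4 CFT, 5.04 ± 2.29 CPM in WT H1.4 and 3.31 ± 2.02 CPM in GFP, with log2 fold changes of -0.76 in H1.4 CFT relative to WT H1.4 (adjusted p = 0.352), -0.15 relative to GFP and 0.61 in WT H1.4 relative to GFP. Ankrd37 was lower still, at 1.73 ± 0.935 CPM in H1.4 CFT, 3.08 ± 0.777 CPM in WT H1.4 and 1.28 ± 1.04 CPM in GFP, with log2 fold changes of -0.82 in H1.4 CFT relative to WT H1.4 (adjusted p = 0.124), 0.43 relative to GFP and 1.25 in WT H1.4 relative to GFP. Ca9, carbonic anhydrase 9, had 38 counts over the H1.4 CFT libraries, 16 over WT H1.4 and 9 over GFP. Without TMM scaling this was 0.545 CPM (0.385 to 0.747, the 95% exact Poisson interval) in H1.4 CFT, 0.233 CPM (0.133 to 0.379) in WT H1.4 and 0.209 CPM (0.0957 to 0.397) in GFP, intervals that cover counting error only. Without the low-count filter its log2 fold change was 1.10 in H1.4 CFT relative to WT H1.4 (adjusted p = 0.186), a value above 0 that did not pass.

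The falls were larger in numbers 3 and 4 than in 1 and 2. These pairs were drawn from the likeness of the same libraries over all genes, so small p-values between them were to be expected. The fit here has 1 mean per group and number pair, so its p-values measure the spread within pairs. They leave out the spread across pairs, which was larger. Within numbers 1 and 2, 20 of 35 genes fell in H1.4 CFT relative to WT H1.4 (15.2% of all genes did), with a median log2 fold change of -0.26. Within numbers 3 and 4, 30 of 35 fell (23.5% of all genes did), with a median of -0.67, and only Pfkm, Pfkfb3, Pfkfb4, Hif1a and Egln3 did not pass. The difference itself, the log2 fold change in numbers 1 and 2 minus that in 3 and 4, was above 0 for 34 of 35 and passed for 19, in each as a smaller fall in numbers 1 and 2. Over all genes 8.14% passed in that direction. Gpi had log2 fold changes of -0.26 within numbers 1 and 2 and -1.01 within 3 and 4 (difference 0.75, adjusted p = 1.24e-17). For Bnip3 the values were -0.39 and -0.96 (difference 0.57, adjusted p = 6.85e-08), and for Vegfa -0.49 and -1.32 (difference 0.83, adjusted p = 0.0474). The Vegfa difference did not pass when any of the 8 CFT and WT libraries was left out. Vegfa passed within each pair (adjusted p = 0.0358 and 0.000475), unlike over all libraries. Ldhb had -0.25 and -0.35 and fell in both pairs, and its difference did not pass (adjusted p = 0.341).

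Inside the groups, libraries 3 and 4 were set against 1 and 2. In H1.4 CFT, 27 of 35 genes were lower in numbers 3 and 4 (12.9% of all genes were), with a median log2 difference of -0.52. In WT H1.4, Slc2a3, Pfkp, Slc16a3 and Adm were lower (4 of 35, against 1.82% of all genes) and Aldoa was higher, as were 2.18% of all genes, with a median of -0.044. In GFP, where number 2 is the only library of its pair and is taken to vary like the others, 16 of 35 were lower (2.85% of all genes were) and Ldhb was higher, as were 1.84% of all genes, with a median of -0.26. Hypoxia targets summed to 1224, 1214, 755.8 and 732.5 CPM in CFT 1 to 4, 1546, 1572, 1327 and 1415 CPM in WT 1 to 4, and 1447, 1046 and 852 CPM in GFP 2 to 4. Neuronal markers summed to 5288, 5406, 4562 and 4570 CPM in CFT 1 to 4, so they were lower in CFT 3 and CFT 4 as well, and their part in the difference was not tested.

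**Figure D3:**
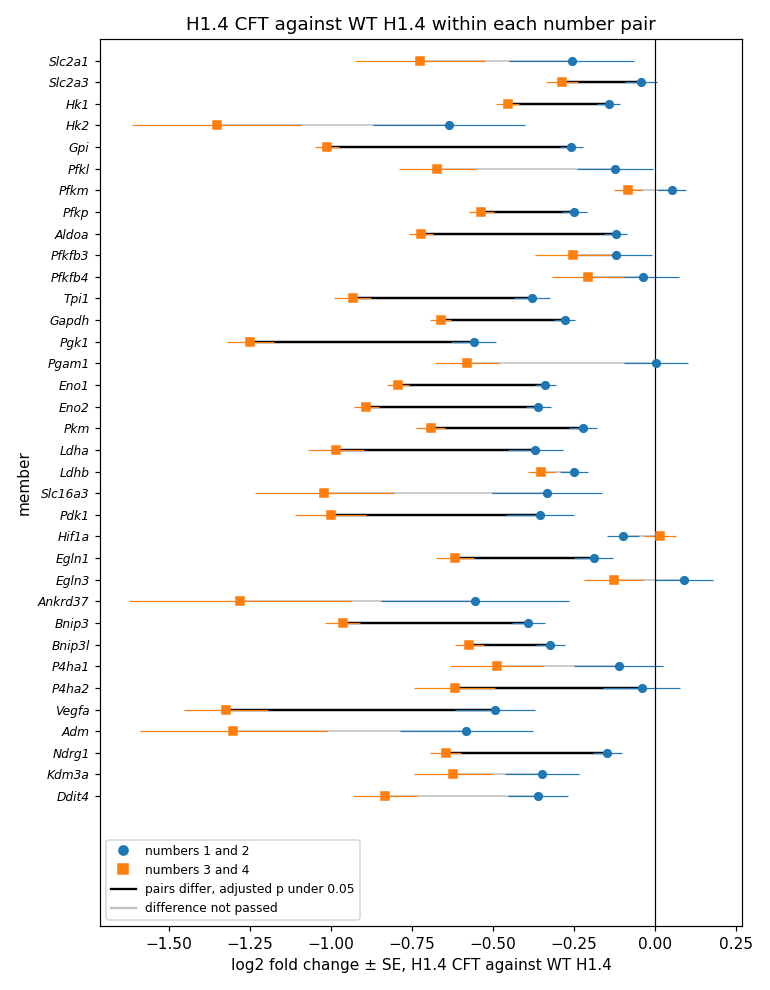
Log2 fold change (± SE) of each gene in H1.4 CFT relative to WT H1.4 within numbers 1 and 2 (circles) and within numbers 3 and 4 (squares), joined by a black line where the pairs differ at an adjusted p under 0.05 and a grey line otherwise. The squares lie to the left of the circles for 34 of 35 genes, with Hif1a as the exception.

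H1.4 CFT against GFP sets the mutant against the control protein, and shares its libraries with the other comparisons. Here 5 of 35 genes fell, a share near the 16.2% of all genes that fell, and the median log2 fold change was -0.18, against 0.011 over all genes. The 5 were Ldhb (-0.44, adjusted p = 3.77e-06), Eno2 (-0.46, adjusted p = 0.015), Bnip3l (-0.19, adjusted p = 0.0155), Hk1 (-0.23, adjusted p = 0.0172) and Tpi1 (-0.47, adjusted p = 0.0402). Every CFT library lay below every GFP library for Tpi1, Eno2 and Ldhb (3 of 35, against 18.5% of all genes). With the replicate block 9 genes fell, the same 5 with Pfkp (log2 fold change -0.29, adjusted p = 0.000718), Gapdh (log2 fold change -0.23, adjusted p = 0.0308), Eno1 (log2 fold change -0.36, adjusted p = 0.0242) and Ndrg1 (log2 fold change -0.36, adjusted p = 0.0424). No share of all genes is given for that fit, so the count of 9 is not comparable with the 16.2%. Within numbers 1 and 2, where GFP 2 is the only GFP library and is taken to vary like the others, 12 of 35 fell (11.4% of all genes did). Within numbers 3 and 4, 19 fell (21.6% of all genes did) and Egln3 rose (log2 fold change 0.50, adjusted p = 4.92e-05, where 17.4% of all genes rose). The count of calls was 3 without CFT 4, 2 without GFP 2 (Ldhb fell and Egln3 rose) and 2 without GFP 3 (Eno2 and Ldhb fell). Ldhb was the 1 call of the 5 that held under every alternative tried. Hk1 was lost without GFP 2 or GFP 3 (adjusted p = 0.0883 and 0.0523), Eno2 without GFP 2 (0.0584), Bnip3l without CFT 4, GFP 2 or GFP 3 (0.0558 to 0.0733), and Tpi1 without CFT 3, CFT 4, GFP 2, GFP 3 or any WT library (0.0552 to 0.116).

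**Figure D4:**
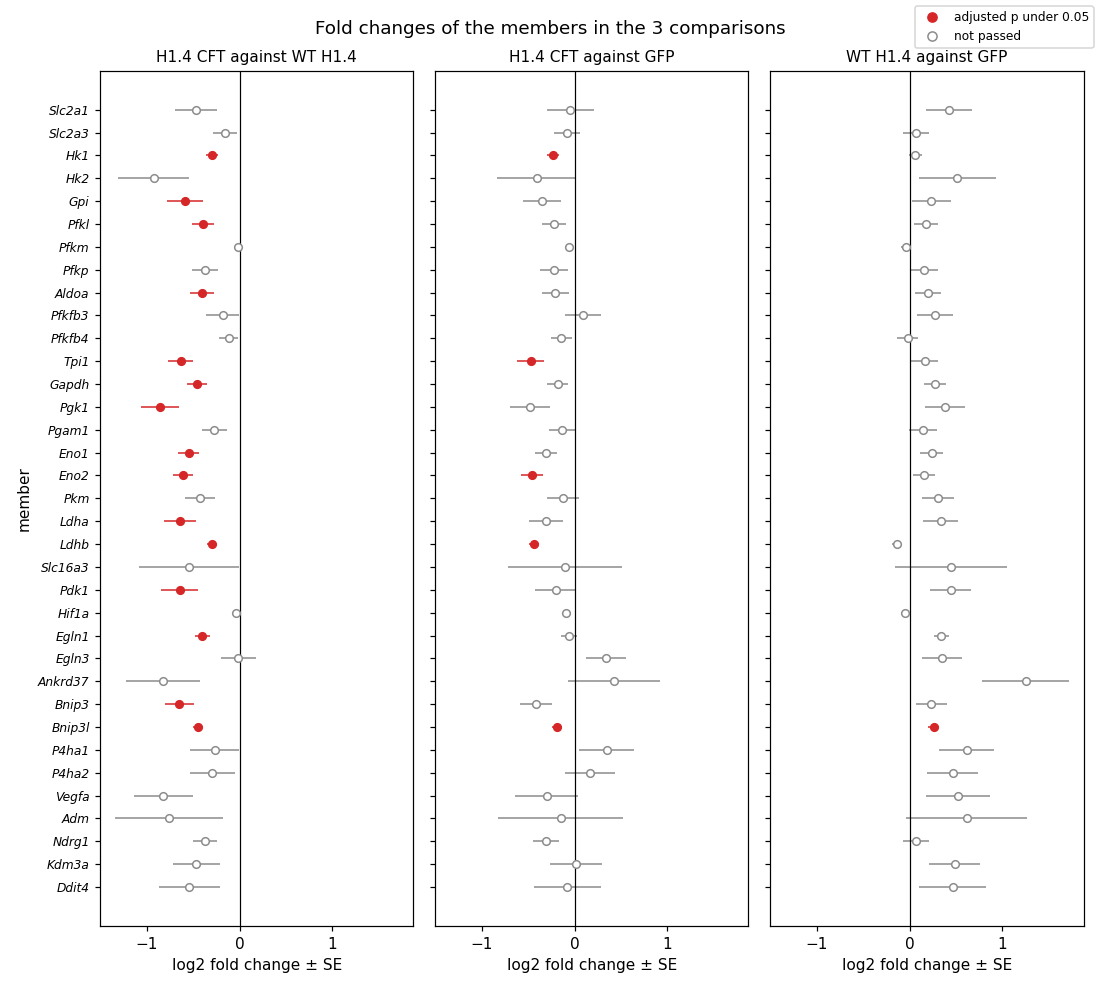
Log2 fold change (± SE) of each tested gene in H1.4 CFT relative to WT H1.4 (left), for H1.4 CFT relative to GFP (middle) and for WT H1.4 relative to GFP (right), with filled points for adjusted p under 0.05. All points lie below 0 in the first panel and 31 of 35 lie above 0 in the last, where only Bnip3l is filled.

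WT H1.4 against GFP sets the wild-type protein against the control protein. Only Bnip3l rose (log2 fold change 0.26, SE 0.056, adjusted p = 0.0285), which is 1 of 35 where 0.434% of all genes rose. The log2 fold change was above 0 for 31 of 35 genes, from -0.14 (Ldhb) to 1.25 (Ankrd37), and the median was 0.27, against -0.0011 over all genes. For 9 genes, none of which passed, it changed sign under at least 1 alternative. Gpi, Tpi1, Gapdh, Pgk1, Eno1, Ldha, Pdk1, Egln1 and Bnip3l had every WT library above every GFP library (9 of 35, against 6.29% of all genes). The replicate block gave 2 rises, Bnip3l and Ankrd37 (0.25 and 1.36 on the log2 scale), and the share of all genes for it is not given. Within numbers 1 and 2, where GFP has a single library that is taken to vary like the others, Gapdh and Eno1 rose (2 of 35, against 0.636% of all genes). Within numbers 3 and 4, 23 of 35 rose (5.39% of all genes did) and Ldhb fell (-0.14, where 3.91% of all genes fell). Among these rises were Vegfa (0.73), Egln3 (0.62) and Ankrd37 (1.87). The Bnip3l call was lost within numbers 1 and 2 (adjusted p = 0.204) and on leaving out WT 2, WT 3, WT 4, GFP 3 or GFP 4 (0.0661 to 0.275).

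Genes next to these in the same pathways were counted by list in H1.4 CFT relative to WT H1.4, a comparison in which 19.2% of all genes fell and 16.7% rose. Among other isoforms and side enzymes of glycolysis 8 of 23 fell and 2 rose, with a median log2 fold change of -0.16. Eno3, the muscle enolase, rose (1.29, adjusted p = 3.05e-07), and stood at 10.6 ± 0.996 CPM in H1.4 CFT and 4.32 ± 0.176 CPM in WT H1.4. The phosphoglucomutase genes Pgm1 and Pgm2 fell (-0.52 and -0.62), and so did Pgp, a phosphatase of glycolytic side products (-0.45). Among genes of pyruvate, lactate and sugar transport and the pyruvate dehydrogenase complex 6 of 21 fell and 2 rose (median -0.072). Pdha1, a subunit of that complex, Pdk3, another of its kinases, the monocarboxylate transporter gene Slc16a1 and the myo-inositol transporter gene Slc2a13 fell (-0.62, -0.56, -0.36 and -0.64). In the pentose phosphate and glycogen list 6 of 17 fell and 2 rose (median -0.066), with Ugp2 and Tkt lower (-0.41 and -0.27) and Pygb, a glycogen phosphorylase, higher (0.19).

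For the hypoxia-inducible factors and their regulators 5 of 19 fell and 5 rose (median -0.0055), beside the same 19.2% and 16.7% of all genes. The hydroxylase genes Egln2 and Hif1an rose (0.35 and 0.28), as did the mitophagy receptor gene Fundc1 (0.74), and Os9, an endoplasmic reticulum lectin, fell (-0.19). Of 40 other hypoxia-induced genes 13 fell and 2 rose, with a median of -0.28. Loxl2, a lysyl oxidase, fell most of the 4 with the smallest p (-0.68), beside the transcription factor Nfil3 (-0.41), the transferrin receptor Tfrc (-0.25) and Wsb1 (-0.19). Enzymes of the tricarboxylic acid cycle had 7 falls and 6 rises among 20 (median -0.0007), with Ogdh and Aco1 lower (-0.27 and -0.28) and Sdhd and Suclg2 higher (0.34 and 0.41). For WT H1.4 against GFP, where 0.434% of all genes rose and 0.509% fell, Tfrc and Mxi1, a MAX-binding repressor, rose (0.39 and 0.31), and Epas1, the alpha subunit of a second hypoxia-inducible factor, and Idh3b fell (-0.33 and -0.22).

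Some properties of the counts bear on single genes. Reads that matched several places were not assigned to a gene, so genes with near-identical copies elsewhere in the genome, such as Gapdh, can lose reads. In the gene table of the GRCr8 build 11 of the 36 genes overlap another gene, among them Hk1, Pfkm, Aldoa, Tpi1, Eno2 and Hif1a, and the strand setting of the counting is not given in the sources used here, so reads of overlapping partners may not be told apart.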

How the data were processed

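Counts were analysed for 11 libraries of polyadenylated RNA, with 4 H1.4 CFT, 4 WT H1.4 and 3 GFP. The authors deposited 1 raw count per gene symbol and library, with no scaling. Per the submitters' processing notes, the tools were STAR 2.7.2b and HTSeq 0.10.0 and the build mRatBN7.2. The annotation release and the strand setting are not given in the sources used here. The counter's 5 summary entries were left out, and 45.9 to 46.9% of reads were assigned to genes. A further 45.2 to 46.0% fell in no gene feature and 0.396 to 0.430% were ambiguous between genes. The reason for the share in no feature was not tested.

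Counts were fitted in R 4.3.3 with edgeR 4.0.16 (TMM scaling, filterByExpr with minimum count 10 and minimum total 15, 1 mean per group over all libraries, robust quasi-likelihood test). The biological coefficient of variation was 7.02% with 8 residual degrees of freedom. Each SE is the absolute log2 fold change divided by the square root of the test's F statistic. Benjamini-Hochberg adjustment ran over every gene tested in a comparison with a threshold of 0.05. The fit was also run on simulated data in which libraries of a group varied independently, unlike the number pairs here. The outcome of that run is not given. A second fit had 1 mean per group and number pair, so its p-values measure the spread within number pairs only. CPM are TMM-scaled. The members and the gene lists were chosen with earlier results of these data known.

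Values per library are given for up to 12 genes past the threshold whose CPM in the H1.4 CFT libraries did not overlap those of WT H1.4, by smallest p. Vegfa, Ddit4, the Ldha and Ldhb ratio and the examples for number pairs were chosen after their values were seen. Wider lists name up to 4 genes past the threshold by smallest p, and for WT H1.4 against GFP every gene past it, and 1 gene that this rule names is not reported here.

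Residuals of libraries with the same number correlated at 0.153, 0.183, 0.208 and 0.132 (numbers 1 to 4) for H1.4 CFT with WT H1.4, at 0.274, 0.133 and 0.188 (numbers 2 to 4) for H1.4 CFT with GFP and at 0.221, 0.118 and 0.101 for WT H1.4 with GFP. All exceed 0.1, so the replicate number was treated as a pairing that comes from the data and from the number in the labels. Libraries of unequal number were not correlated, so these values cannot tell a pairing by number from the likeness within number pairs.

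Alternatives were RLE scaling, DESeq2 1.42.0, limma-voom (limma 3.58.1), no low-count filter, 5 CPM in 3 libraries, the replicate block, a number pair term, each number pair alone, the compared groups alone, no robust estimation, and the omission of each library.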

Additional observations from a re-analysis of the deposited data

Results flagged for a closer look

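The fall in H1.4 CFT relative to WT H1.4 differed between number pairs for 19 genes, by the test of the difference (log2 fold change in numbers 1 and 2 minus that in 3 and 4). Of all genes 8.14% passed with a difference above 0. That test measures the spread within number pairs only, and the pairs were drawn from the likeness of these same libraries. Among glucose entry and upper glycolysis genes the difference was 0.25 for Slc2a3, 0.31 for Hk1, 0.75 for Gpi, 0.29 for Pfkp and 0.60 for Aldoa. In lower glycolysis it was 0.55 for Tpi1, 0.38 for Gapdh, 0.69 for Pgk1, 0.46 for Eno1, 0.53 for Eno2 and 0.47 for Pkm. It was 0.62 for Ldha, 0.65 for Pdk1 and 0.43 for Egln1. Among hypoxia targets it was 0.57 for Bnip3, 0.25 for Bnip3l, 0.58 for P4ha2, 0.83 for Vegfa and 0.50 for Ndrg1. The differences of Slc2a3, Ldha, Pdk1, Bnip3l, P4ha2 and Vegfa did not pass when some single libraries were left out.

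One library stood far from the other 3 of its group in 2 of 72 groups of 4 screened, and chance gives such a case in about 1 of 20 groups. Tpi1 was highest in WT 4 at 470.9 CPM, against 454.6 to 456.6 CPM in the other WT libraries. Egln3 was lowest in WT 3 at 26.5 CPM, against 31.9 to 33.0 CPM in the others.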

How the results depend on the processing

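In H1.4 CFT relative to WT H1.4, where 15 genes fell, the count was 26 with the replicate block, 27 with a number pair term, 30 within numbers 3 and 4, 24 in limma-voom and 11 to 19 without single libraries. In every comparison the share of all genes called under an alternative is given only for the number pairs. The other counts stand without it. Of the 15 calls, 11 held under every alternative, and Gpi, Pfkl, Aldoa and Pdk1 were each lost under at least 1, among them the analysis without the low-count filter. For H1.4 CFT against GFP, with 5 calls, it was 9 with the replicate block, 9 without robust estimation, 9 in limma-voom, 12 with the pair term, 12 within numbers 1 and 2, 20 within 3 and 4 and 2 to 7 without single libraries. For WT H1.4 against GFP, with 1 call, it was 2 with the replicate block, 3 with the pair term, 2 and 24 within the number pairs, 3 without the filter, 4 with the compared groups alone, 2 in DESeq2 and 0 to 3 without single libraries. Without robust estimation edgeR called 0, with 14 at an unadjusted p under 0.05. The 19 differences between number pairs were 14 to 26 without single libraries. The log2 fold change in H1.4 CFT relative to WT H1.4 changed sign for 4 genes, none of which passed over all libraries. At 5 CPM in 3 libraries it was 0.0009 for Pfkm and 0.0067 for Egln3. Within numbers 1 and 2 it was 0.051 for Pfkm, 0.0033 for Pgam1 and 0.090 for Egln3. Pfkm had -0.044 to 0.010 without single libraries, changing sign without WT 3. Egln3 had -0.085 to 0.054 without single libraries, changing sign without CFT 3, CFT 4, WT 2 or WT 4. Within numbers 3 and 4 it was 0.015 for Hif1a. The log2 fold change in H1.4 CFT relative to GFP changed sign for 13 genes, none of which passed over all libraries. In limma-voom it was 0.0037 for Slc2a1. Slc2a1 had -0.29 to 0.22 without single libraries, changing sign without CFT 3, CFT 4 or GFP 2. Slc2a3 had -0.16 to 0.014 without single libraries, changing sign without GFP 2. Hk2 had -0.76 to 0.16 without single libraries, changing sign without GFP 2. Pfkfb3 had -0.086 to 0.31 without single libraries, changing sign without GFP 4. Slc16a3 had -0.44 to 0.67 without single libraries, changing sign without CFT 3, CFT 4 or GFP 2. Egln1 had -0.12 to 0.011 without single libraries, changing sign without CFT 4. P4ha2 had -0.082 to 0.45 without single libraries, changing sign without GFP 4. Vegfa had -0.52 to 0.016 without single libraries, changing sign without GFP 2. Adm had -0.58 to 0.47 without single libraries, changing sign without CFT 3, CFT 4 or GFP 2. Kdm3a had -0.22 to 0.37 without single libraries, changing sign without CFT 1, CFT 2, GFP 3 or GFP 4. Ddit4 had -0.31 to 0.36 without single libraries, changing sign without CFT 3, CFT 4 or GFP 2. Within numbers 1 and 2 it was 0.0081 for Pfkm, -0.081 for Pfkfb3, -0.041 for Ankrd37 and -0.24 for Kdm3a. With the replicate block it was -0.015 for Kdm3a. With the number pair term it was -0.054 for Kdm3a. The log2 fold change in WT H1.4 relative to GFP changed sign for 9 genes, none of which passed over all libraries. Within numbers 1 and 2 it was -0.021 for Slc2a3, -0.066 for Hk1, -0.10 for Hk2, -0.029 for Aldoa, -0.070 for Pgam1, -0.066 for Slc16a3, -0.078 for Egln3 and -0.027 for Ndrg1. Within numbers 3 and 4 it was 0.0042 for Pfkfb4. In limma-voom it was 0.0097 for Pfkfb4. Pfkfb4 had -0.18 to 0.10 without single libraries, changing sign without WT 3, GFP 2 or GFP 3. The causes were not tested. Counting error is widest for Ca9, with 1 to 16 counts per library, and Ankrd37, with 7 to 57.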
